A study of Homo sapiens with 6 samples.

Results

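The miR-30 family was followed in exosomes, vesicles that cells shed into the culture medium. The members were the 7 rows of the count table named hsa-miR-30a-5p, hsa-miR-30b-5p, hsa-miR-30c-5p, hsa-miR-30d-5p, hsa-miR-30e-5p, hsa-miR-30a-3p and hsa-miR-30e-3p, out of 1247 rows in all. The prefix for human is dropped below. They were chosen by name, and the 5 members of the 5p arm were set against the 2 members of the 3p arm. The exosomes came from H1299, an established human line of non-small cell lung cancer. In the shWDR4 group the cells stably expressed a short hairpin RNA against WDR4, the partner protein of METTL1 in the enzyme that puts 7-methylguanosine on RNA. In the control group they stably expressed a control hairpin RNA. Per the labels both groups are otherwise wild type and spent 48 hours in medium freed of exosomes, and the number of hairpins or clones per group is not given in the sources used here. There were 3 libraries of independent repeats in either group, 6 in all, which the authors joined into 1 count column per group. The series asked about the part of WDR4 in sorting miRNAs into exosomes.

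A miRNA is cut from a hairpin whose 2 arms can each give a mature strand, the 5p and the 3p. The strand that is loaded into an Argonaute protein finds its messenger RNAs mainly through its seed, the bases from position 2 to position 8. The 5p strands of the family share 1 seed and are known to restrain SNAI1, a driver of epithelial to mesenchymal transition. The 3p strands carry other seeds and so have other targets.

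The sequences of 5 members and of 2 further 3p strands were found in RefSeq (GRCh38.p14). They are shown because the seed sets the 5p members apart from the 3p members, and because miR-30a and miR-30e differ by so little. Each is written 5′ to 3′ with the seed in capitals.
miR-30a-5p: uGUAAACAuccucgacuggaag
miR-30e-5p: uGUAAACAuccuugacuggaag
miR-30c-5p: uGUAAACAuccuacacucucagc
miR-30a-3p: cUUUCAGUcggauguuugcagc
miR-30e-3p: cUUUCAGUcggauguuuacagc
miR-30c-1-3p: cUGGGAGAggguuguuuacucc
miR-30c-2-3p: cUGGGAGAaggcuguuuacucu

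The 3 sequences of the 5p arm begin with the same 12 bases. Counted from 1 at the 5′ end, miR-30e-5p differs from miR-30a-5p by C13U alone, and miR-30e-3p differs from miR-30a-3p by G18A alone. The base given first is that of miR-30a. The 3p strands of miR-30a and miR-30e thus have 1 seed, and the 3p strands of both miR-30c hairpins have another. Members that differ by 1 base can trade reads when mismatches are allowed in the alignment, so how the authors' counting divided reads among them is uncertain.

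The 2 hairpins that give both a 5p and a 3p member are printed with their mature strands in capitals, to show how the arms face each other.
MIR30A: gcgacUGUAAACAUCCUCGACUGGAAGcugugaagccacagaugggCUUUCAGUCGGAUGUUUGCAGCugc
MIR30E: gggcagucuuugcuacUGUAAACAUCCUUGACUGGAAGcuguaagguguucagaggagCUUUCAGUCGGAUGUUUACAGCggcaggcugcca

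The hairpin of miR-30a lies on chromosome 6 at 71403551 to 71403621 of GRCh38, minus strand. It overlaps the long non-coding genes LINC00472 and AL136164.2, both on the same strand, and lies outside their exons. That of miR-30c-2 lies at 71376960 to 71377031 in the same genes and on the same strand. The hairpin of miR-30e lies on chromosome 1 at 40754355 to 40754446, plus strand, inside NFYC, which encodes a subunit of the transcription factor NF-Y. That of miR-30c-1 lies at 40757284 to 40757372, also inside NFYC. Both are outside exons of NFYC.

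The shWDR4 column held 552913 counts and the control column 1020282. Counts were scaled to CPM (counts in each 1000000 of the column total), and a count of 0 would allow up to 5.43 CPM in shWDR4 and 2.94 CPM in control (3 counts). All intervals below are exact 95% intervals (Clopper-Pearson for shares, and conditional on the sum of the counts for folds). Amplified reads can be copies of 1 molecule, so the intervals describe the error of counting and nothing more. The spread between the 3 repeats is unknown, so no difference has a replicate check, no p-value was computed, and each compares 2 pooled columns. Ligation and amplification differ between sequences, so levels of different miRNAs are compared as CPM and not as molecules. All libraries are of exosomes, so sorting cannot be told apart from the level in the cells, nor fewer vesicles of a kind from less RNA in each.

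The summed counts of both arms lay near the median of the well-measured miRNAs, while single members lay on either side of it. The sums are mostly miR-30a. The 5 members of the 5p arm together had 1745 counts in shWDR4 and 4052 in control. The 5p sum was 0.316% of all counts in shWDR4 (0.301 to 0.331) against 0.397% in control (0.385 to 0.4095), which is 1.26-fold lower (1.19 to 1.33). The 2 members of the 3p arm together had 5821 counts in shWDR4 and 15293 in control. That was 1.05% (1.03 to 1.08) in shWDR4 and 1.499% (1.48 to 1.52) in control, which is 1.42-fold lower (1.38 to 1.47). On the log2 scale these differences were -0.33 and -0.51, and the median log2 fold of the 349 evaluated entries, those whose 2 counts added up to 50 or more, was -0.37. The middle 50% of these entries, from the 25th to the 75th percentile, spanned -1.24 to 1.04. With no minimum count the median was 0.30. That lets in entries of a few counts, and for these folds a 0 was set to 3 while 1 and 2 were kept. Relative to the median of the 349 entries, miR-30e-3p lay at -0.93 and miR-30c-5p at 1.08.

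The direction of the sums depended on the scaling. With trimmed means (TMM) the log2 fold of the 5p sum was 0.13 and that of the 3p sum -0.048, and the median of the 349 entries was 0.095. Totals without miR-3960, miR-6126 and miR-7704, left out because they were so much higher in shWDR4, raise every other log2 fold by 0.66 by construction. They gave 0.33 for the 5p sum and 0.15 for the 3p sum, the one scaling of 9 with the 3p sum above 0, and a median of 0.30 for the 349 entries. The ratio between both arms needs no scaling. The 5p sum over the 3p sum was 0.2998 in shWDR4 (0.284 to 0.316) and 0.265 in control (0.256 to 0.274), 1.13-fold higher in shWDR4 (1.06 to 1.21). The 5p sum covers miR-30a to miR-30e and the 3p sum only miR-30a and miR-30e, so this ratio also follows which hairpins are summed. With miR-30a and miR-30e alone in both arms, the ratio in shWDR4 was 1.04 times that in control (0.961 to 1.12). That interval includes no difference.

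Beside other single miRNAs the family could look higher or lower. Set against each of 8 miRNAs often used as references in exosome work, the log2 fold of the 5p sum ran from -0.73 against miR-191-5p to 2.23 against let-7a-5p, and it was above 0 for 7 of the 8. For the 3p sum it ran from -0.91 to 2.05 and was above 0 for 4 of the 8. No counting intervals were computed for these values, and that of the 5p sum against miR-25-3p was only 0.035. The 3 entries with a mean of at least 1000 CPM whose log2 fold lay nearest to that of the 5p sum, out of 85 such entries, were miR-99b-5p at -0.39, miR-28-3p at -0.24 and miR-93-5p at -0.44. Likeness here rests on the 2 pooled values of each entry.

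**Figure D1:**
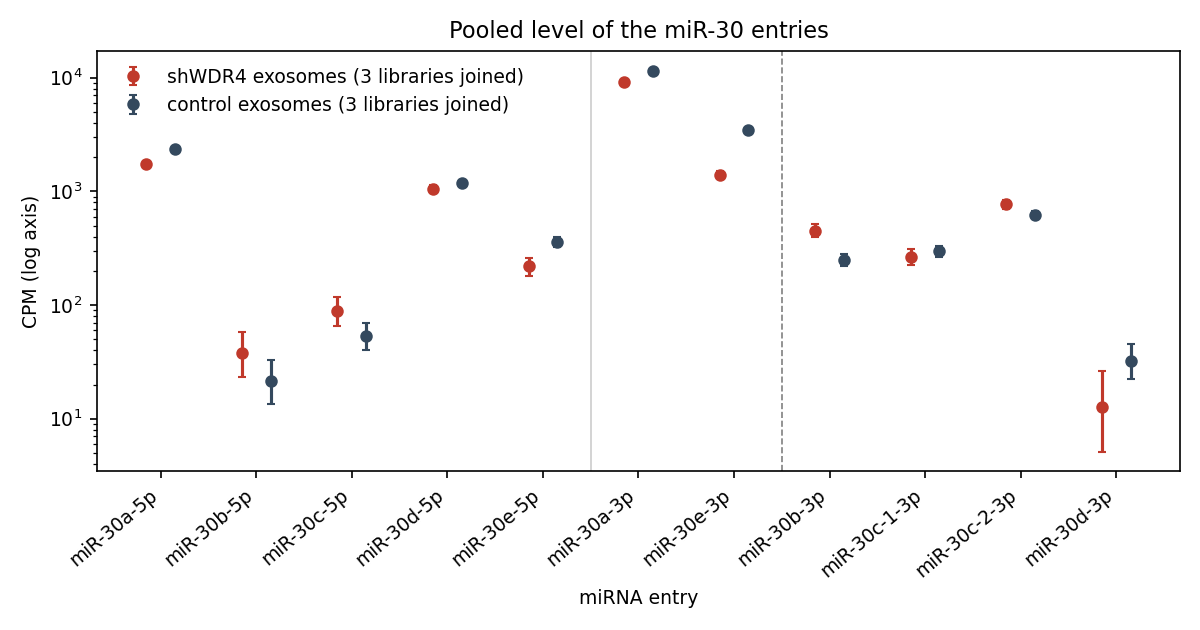
Level of the 7 members and, right of the dashed line, of the other 3p arms of miR-30 hairpins, in CPM on a log axis, for shWDR4 exosomes (left point of each pair) and control exosomes. Points are pooled values of 3 joined libraries and bars are exact 95% counting intervals. In the plot miR-30a-3p stands highest in both groups, at 9121 CPM in shWDR4 and 11522 CPM in control.

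Within the 5p arm miR-30a-5p and miR-30d-5p made up most of the counts. The first, miR-30a-5p, which is also known to repress the autophagy gene BECN1, had 969 counts in shWDR4 and 2394 in control. Its level was 1753 CPM in shWDR4 and 2346 CPM in control, 1.34-fold lower (1.24 to 1.44). Of miR-30d-5p there were 585 counts in shWDR4 and 1216 in control, which is 1058 CPM and 1192 CPM, 1.13-fold lower (1.02 to 1.25). These 2 are the deepest measured members of the 5p arm, and both lay within 2-fold of control. As shares of the 5p sum, miR-30a-5p took 55.5% in shWDR4 (53.2 to 57.9) and 59.1% in control (57.5 to 60.6). The share of miR-30d-5p was 33.5% in shWDR4 (31.3 to 35.8) and 30.01% in control (28.6 to 31.4).

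The scarcer miR-30e-5p had 121 counts in shWDR4 and 365 in control. Its level was 219 CPM in shWDR4 and 358 CPM in control, 1.63-fold lower (1.33 to 2.02). It had the lowest log2 fold of the 5p members, at -0.71. Its share of the 5p sum was 6.93% in shWDR4 (5.79 to 8.23) and 9.01% in control (8.14 to 9.93).

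By contrast miR-30c-5p and miR-30b-5p were higher in shWDR4 with every scaling tried, though not always beyond counting error. In rodent hearts miR-30c is known to repress the matrix factor CTGF. Here it had 49 counts in shWDR4 and 55 in control, or 88.6 CPM and 53.9 CPM, 1.64-fold higher (1.095 to 2.46). Of miR-30b-5p there were 21 counts in shWDR4 and 22 in control, or 38.0 CPM and 21.6 CPM, 1.76-fold higher. The interval of that fold, 0.921 to 3.36, includes no difference, and the member fell short of 50 counts, with 43 over both columns. Both are rare members, with 1.20% and 2.81% of the 5p sum in shWDR4 for miR-30b-5p and miR-30c-5p, and 0.543% and 1.36% in control.

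The order of levels was the same in both groups among the 5p members, from miR-30a-5p down through miR-30d-5p, miR-30e-5p and miR-30c-5p to miR-30b-5p. No neighbours in that order had overlapping counting intervals in either group.

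The most abundant member of all was a 3p strand. With 5043 counts in shWDR4 and 11756 in control, miR-30a-3p ranked 18th among all entries in shWDR4 and 16th in control. Its level was 9121 CPM in shWDR4 and 11522 CPM in control, 1.26-fold lower (1.22 to 1.31). Its log2 fold of -0.34 lay close to the median of all evaluated entries, and 177 of the 349 had a lower one.

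The other 3p member had the lowest log2 fold of the 7, and with scaling to the totals the one farthest from 0. Of miR-30e-3p there were 778 counts in shWDR4 and 3537 in control, or 1407 CPM and 3467 CPM, 2.46-fold lower (2.28 to 2.67). It ranked 72nd in shWDR4 and 41st in control. Of the 6 evaluated members only miR-30e-3p, 1 of 6, was past 2-fold in either direction, whereas 57.6% of the 349 evaluated entries were. Of these entries 31.5% were at least 2-fold lower and 26.1% at least 2-fold higher. The split was 19.8% and 31.2% with TMM, 14.04% and 33.5% without the 3 entries named above, and 43.3% and 21.8% with upper quartiles over all entries. Even for miR-30e-3p, 81 of the 349 entries had a lower log2 fold. The 2-fold difference held in 5 of 9 scalings, over which its log2 fold ran from -1.68 to -0.64, always below 0. With the 4 scalings in which it stayed within 2-fold, miR-30c-5p and the sparse miR-30b-5p were past 2-fold higher.

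In the authors' deposited table, only 1 of the 7 members, miR-30e-3p, was marked as changed. That mark was given in the authors' deposited table to 10.8% of the 1247 entries on the lower side and to 15.4% on the higher side. Their mark asked for a Storey q-value under 0.001 and a 2-fold difference, and 4 of the 7 members met the q-value in the authors' deposited table, as did 31.4% of the 1247 entries. In the authors' deposited table the q-value was 1.62e-155 for miR-30e-3p, 3.70e-50 for miR-30a-3p and 0.0139 for miR-30b-5p. Since these q-values compare joined columns, they follow depth as well as size and hold no spread between repeats.

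**Figure D2:**
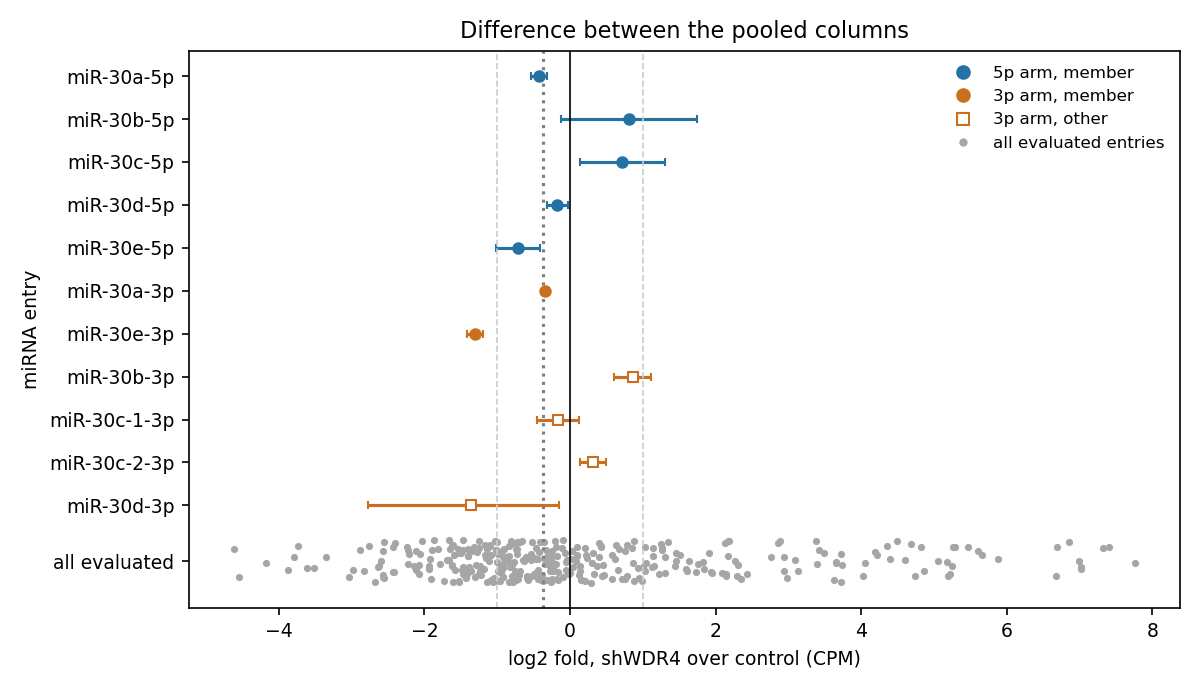
Log2 fold of CPM, shWDR4 over control, of the 11 miR-30 entries with exact 95% counting intervals, above the 349 evaluated entries (grey, spread at random up and down). The dotted line is the median of the grey points at -0.37 and the dashed lines mark 2-fold. Of the filled points only miR-30e-3p, at -1.30, lies beyond a dashed line.

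The near twins miR-30a and miR-30e could be compared within a column, free of any scaling. For the 3p strands, miR-30e-3p over miR-30a-3p was 0.154 in shWDR4 (0.143 to 0.166) and 0.301 in control (0.2897 to 0.312), a 1.95-fold lower ratio (1.79 to 2.12). For the 5p strands, miR-30e-5p over miR-30a-5p was 0.125 in shWDR4 (0.1025 to 0.151) and 0.152 in control (0.136 to 0.1703), 1.22-fold lower (0.977 to 1.53), an interval that includes no difference. Of the 3p sum, miR-30a-3p took 86.6% in shWDR4 (85.7 to 87.5) and 76.9% in control (76.2 to 77.5). The 3p strands of the twins, which differ by G18A alone, thus took different shares of their sum in the 2 groups.

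In both hairpins the 3p strand outnumbered the 5p strand in either group. For miR-30a there were 5.20 counts of the 3p strand per count of the 5p strand in shWDR4 (4.86 to 5.58) and 4.91 in control (4.70 to 5.13). For miR-30e there were 6.43 in shWDR4 (5.30 to 7.85) and 9.69 in control (8.698 to 10.8). Expressed as 5p over 3p, the ratio of miR-30a in shWDR4 was 0.944 times that in control (0.869 to 1.02), and that of miR-30e was 1.51 times that in control (1.20 to 1.88). With both hairpins summed it was 1.04 times that in control (0.961 to 1.12).

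Other hairpins show how far the balance of arms differed elsewhere. Arms were paired by matching names, and 51 hairpins so paired had at least 50 counts for each arm over both columns. Hairpins whose arms are named differently, such as those of miR-30c, were left out. Some counts stand in 2 hairpins, as miR-423-5p and miR-3184-3p have the same counts, and so do miR-365a-3p and miR-365b-3p. The 3p strand was the higher in 19 of the 51 in shWDR4 and in 24 in control. Their 5p over 3p ratio differed by more than 2-fold in 35.3% (18 of 51), and the median difference in either direction was 1.71-fold. Neither miR-30a nor miR-30e passed 2-fold. The difference was smaller than that of miR-30a in 6 hairpins and smaller than that of miR-30e in 18. The largest differences toward the 3p strand in shWDR4 were those of miR-93 (39.5-fold), miR-1908 (5.03-fold) and miR-877 (4.75-fold). Toward the 5p strand they were those of miR-6892 (61.7-fold), miR-3187 (59.4-fold) and miR-23a (41.3-fold). Of these, miR-3187 and miR-6892 had 7 and 8 counts of the 5p strand in control.

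**Figure D3:**
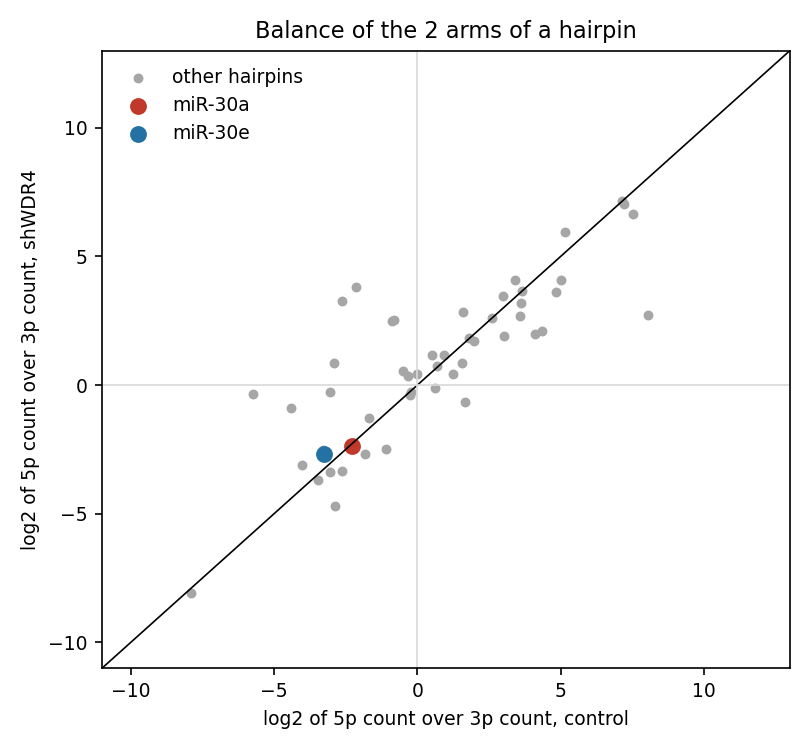
Log2 of the 5p count over the 3p count of each of 51 hairpins in shWDR4 (vertical axis) and control (horizontal axis), each a pooled value. The diagonal marks an equal balance in both groups. Both miR-30 hairpins lie below 0 on either axis, miR-30a near the diagonal and miR-30e a little above it.

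The table held 4 more strands of miR-30 hairpins, all 3p. Of miR-30b-3p there were 250 counts in shWDR4 and 254 in control, or 452 CPM and 249 CPM, 1.82-fold higher (1.52 to 2.17). Of miR-30c-2-3p there were 426 in shWDR4 and 631 in control, or 770.5 CPM and 618 CPM, 1.25-fold higher (1.099 to 1.41). These 2 shared the direction of miR-30b-5p and miR-30c-5p with scaling to the totals.

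Of miR-30c-1-3p there were 147 counts in shWDR4 and 304 in control, or 266 CPM and 298 CPM. Its fold was 0.892 (0.728 to 1.09), which includes no difference. The strand miR-30d-3p had 7 counts in shWDR4 and 33 in control, or 12.7 CPM and 32.3 CPM, 2.55-fold lower (1.11 to 6.84), from fewer than 50 counts. Of the 4 strands 3 were evaluated. With scaling to the totals none of these was past 2-fold, whereas 57.6% of the 349 evaluated entries were. Their median log2 fold was 0.32, against -0.37 for all 349 entries. That count depends on the scaling. With TMM every log2 fold is raised by 0.46, which takes miR-30b-3p, at 0.86 with the totals, past 2-fold higher.

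The 3p strand was thus the higher in the hairpins of miR-30a, miR-30b and miR-30e in both groups, and also for miR-30c with both hairpins added. For miR-30b there were 11.9 counts of the 3p strand per count of the 5p strand in shWDR4 (7.62 to 19.6) and 11.5 in control (7.46 to 18.8). For miR-30c there were 11.7 in shWDR4 (8.73 to 16.0) and 17.0 in control (12.9 to 22.7). The exception was miR-30d, with 83.6 counts of the 5p strand per count of the 3p strand in shWDR4 (40.3 to 209) and 36.8 in control (26.1 to 53.8). Over all 11 entries the 5p over 3p ratio was 0.262 in shWDR4 (0.249 to 0.277) and 0.245 in control (0.237 to 0.254). The first was 1.07 times the second (1.003 to 1.14).

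By hairpin letter, the 5p over 3p ratio in shWDR4 was 0.944 times that in control for miR-30a (0.869 to 1.02). It was 0.970 times for miR-30b (0.494 to 1.90), and both intervals include no difference. So did those of miR-30d and of miR-30c with both hairpins added, but not that of miR-30e (1.20 to 1.88). The log2 folds below are with scaling to the totals. The entries of miR-30b were at 0.82 for the 5p and 0.86 for the 3p strand. Those of miR-30c were at 0.72 for miR-30c-5p, 0.32 for miR-30c-2-3p and -0.16 for miR-30c-1-3p. The 6 entries of miR-30a, miR-30d and miR-30e lay between -1.35 and -0.17. This arrangement by name was made after the values were seen and is a description. The ends of both sets, miR-30c-1-3p and miR-30d-5p, were nearly the same. In the sequences above, miR-30c-5p departs from miR-30a-5p and miR-30e-5p after base 12. Read from the 5′ end, the 3p strands of miR-30c depart from those of miR-30a and miR-30e after base 2. Over all 22 bases, miR-30c-1-3p and miR-30c-2-3p differ from miR-30a-3p at 9 and 10 positions. From miR-30e-3p they differ at 8 and 9.

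Base composition moved with the differences across the evaluated entries that had a RefSeq sequence. Over the 311 evaluated entries with a RefSeq sequence, Spearman's rho between GC content and log2 fold was 0.56 and Pearson's r was 0.53. This is a description across miRNAs of the same 2 columns, which share library and depth. Among entries of 40 to 50% GC other than miR-30, the median log2 fold was -1.03 (63 entries). The miR-30 entries in that band were miR-30e-3p at -1.30, miR-30e-5p at -0.71, miR-30a-5p at -0.42 and miR-30c-5p at 0.72. Among entries of 50 to 60% GC the median without miR-30 was -0.48 (86 entries), and miR-30a-3p had -0.34, miR-30c-1-3p -0.16 and miR-30c-2-3p 0.32. Of these 7 entries, miR-30e-3p alone lay below the median of its band. The part of base composition in the differences was not tested.

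The letters GGAG and CCCU, reported as motifs of miRNAs sorted into exosomes, were searched on the RNA strand of the mature sequences. None of the 5 members with a sequence held either. Both 3p strands of miR-30c held GGAG, as did 15.7% of the 2370 mature sequences of the reference, and CCCU was held by 11.9%. Over all evaluated entries with a sequence, those with GGAG had a median log2 fold of 0.16 and those without had -0.47. Between 40 and 60% GC the medians were both -0.73, for 26 entries with the motif and 130 without.

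**Figure D4:**
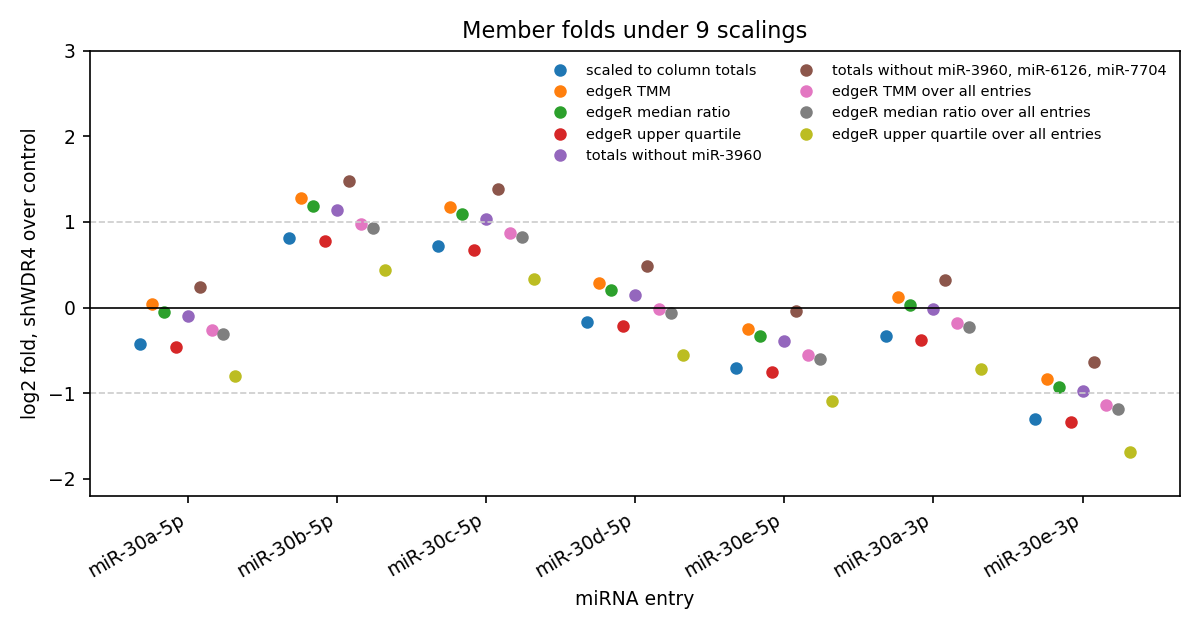
Log2 fold, shWDR4 over control, of the 7 members under 9 scalings of the pooled counts, 1 colour each, with dashed lines at 2-fold. A scaling moves all members by the same amount, so their order is fixed, with miR-30e-3p lowest and miR-30b-5p highest in each.

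Over the 9 scalings 4 members kept their sign. Both miR-30e strands were below 0 in all 9, and miR-30b-5p and miR-30c-5p were above 0 in all 9. A kept sign is not always a difference beyond counting error. The log2 fold of miR-30e-5p ran from -1.09 to -0.046, and its interval included 0 with TMM (-0.56 to 0.053) and without the 3 entries named above (-0.35 to 0.25). The log2 fold of miR-30c-5p ran from 0.34 to 1.38 and was past 2-fold in 4 of the 9 scalings. Its interval included 0 with upper quartile over all entries (-0.25 to 0.92). That of miR-30b-5p included 0 with this scaling (-0.50 to 1.37), with scaling to the totals (-0.12 to 1.75) and with others. The directions of miR-30a-5p, miR-30a-3p and miR-30d-5p changed with the scaling, with ranges of -0.80 to 0.24, -0.72 to 0.33 and -0.55 to 0.49.

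Other lists give the setting of these values. Of 9 miRNAs linked to epithelial to mesenchymal transition or to lung, 5 had entries and 2 were evaluated, with a median log2 fold of -2.01. Both were at least 2-fold lower, as were 31.5% of all evaluated entries, and 2 entries are too few to describe the list. Of the 8 exosome reference miRNAs 3 were at least 2-fold lower, a share near the same 31.5%, and none was higher, against 26.1% of all. Their median was -0.63. Several marker sums of other tissues lay lower in shWDR4 with scaling to the totals. So did 5 of the 6 evaluated members, and the median log2 fold of all evaluated entries was -0.37. The 7 blood cell markers summed to 271 CPM in shWDR4 and 698 CPM in control, with miR-451a at 0 counts in control and at 3 in shWDR4. Of these markers miR-150-5p was also higher in shWDR4, at 32.6 CPM against 23.5 CPM in control, and the others were lower. The 4 endothelial and smooth muscle markers summed to 2398 CPM in shWDR4 and 11633 CPM in control. The liver marker miR-122-5p had 685 CPM in shWDR4 and 2139 CPM in control. The 3 muscle markers had 3 counts in shWDR4 and 10 in control, or 5.43 CPM and 9.80 CPM. In shWDR4 miR-133a-3p and miR-206 were at 0, against 1 and 3 counts in control. No listed marker defines H1299 itself. Of 5 epithelial markers, 2 had entries, with 7 counts in shWDR4, where miR-141-3p was at 0, and 45 in control. These sums were 12.7 CPM in shWDR4 and 44.1 CPM in control. The part of such RNA in the miR-30 values was not tested.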

How the data were processed

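Exosomal small RNA was sequenced by the authors with adaptor ligation and size selection, per the labels' protocols. The deposited counts are whole-number read counts per mature miRNA, and per the file headers each column joins 3 libraries. Per the submitters' processing notes the tools were Bowtie, edgeR, FastQC, SAMtools and Trim Galore, which state no roles or versions. For the build, the annotation, shared reads and molecular identifiers the answer is: not given in the sources used here. Further columns made by the authors held log2 folds (control over shWDR4), p-values and q-values. A z-score, a score deposited by the authors without its formula, was in the same table and was not printed.

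Here counts were divided by the column total, and folds are shWDR4 over control. An entry was evaluated when its 2 counts added up to 50 or more, and the size rule was 2-fold. As values per library were not used, the planned rule for pooled columns applied and no test was run. Intervals of folds came from SciPy 1.17.1 and were tested on simulated counts, and those of ratios of ratios came from R 4.3.3. Alternative scale factors came from edgeR 4.0.16. Named entries are the members, the other strands of miR-30 hairpins, the 3 nearest entries, the 3 hairpins of largest arm difference each way, and 8 lists. Members and lists were chosen with earlier results of these data known. Sequences and positions are from RefSeq, and host genes are from GENCODE release 29.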

Additional observations from a re-analysis of the deposited data

How the results depend on the processing

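No paired analysis was possible because the deposited columns join the 3 libraries of each group, and for the same reason no replicate could be left out. The log2 fold of the 5p sum, -0.33 with scaling to the totals, was 0.13 with TMM, 0.040 with median ratio, -0.0085 without miR-3960 and 0.33 without miR-3960, miR-6126 and miR-7704. For the 3p sum, -0.51, these were -0.048, -0.14, -0.19 and 0.15. With factors over all entries, added after seeing the data, TMM gave -0.17 and -0.35, median ratio -0.22 and -0.40 and upper quartile -0.71 and -0.89 for the 5p and 3p sums. Upper quartile over the evaluated entries left both within their intervals. Without miR-30a-5p the 5p sum was at -0.21, and over the 3 members with a RefSeq sequence at -0.42. Leaving out any other member moved it less than its interval. Signs turned for miR-30a-5p (0.041 with TMM, 0.24 without the 3), miR-30d-5p (0.29 with TMM, 0.20 with median ratio, 0.15 without miR-3960, 0.49 without the 3) and miR-30a-3p (0.12 with TMM, 0.034 with median ratio and 0.33 without the 3). By construction a scaling shifts all entries alike, from -0.38 to 0.66. Of 56 recomputed member folds, 24 stayed within the counting interval, 23 moved beyond it with the same sign and 9 turned. Entries 2-fold lower numbered 110, and 68 with a minimum of 200 counts and 219 with no minimum. Entries 2-fold higher numbered 91, and 151 with a minimum of 20, 48 with 200 and 402 with none. As a 0 was set to 3 while 1 and 2 were kept, an entry absent from shWDR4 can count as higher without a minimum. An example is miR-133a-3p, with 0 counts in shWDR4, 1 in control and a log2 fold of 2.47. Lower and higher entries numbered 69 and 109 with TMM, 49 and 117 without the 3, and 151 and 76 with upper quartile over all entries. The arm ratios of miR-30a and miR-30e need no scaling. The log2 difference of their summed ratio was 0.05 (-0.058 to 0.165), an interval that includes 0. With all miR-30 entries it was 0.10 (0.005 to 0.188), an interval that does not include 0. The share of hairpins past 2-fold was 46.3% with a minimum of 20 and 30.8% with 200. Depth limits miR-30b-5p, miR-30c-5p and miR-30d-3p most.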
